A study of Mus musculus and Homo sapiens with 8 samples.

Results

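Thymus RNA from irradiated mice labelled TRAF6 null was set against thymus RNA from an unirradiated wild-type mouse to describe which genes left the unirradiated level under the null label. Both groups belong to the CD-1 strain background and were 2.5 weeks old. The labelled-null mice had received 15 Gy of ionising radiation with a treatment time of 10 h, and the wild-type control had received none. The 2 arrays labelled TRAF6 null and irradiated (called the labelled-null arrays here) were compared with 1 unirradiated wild-type array. A further 2 arrays of irradiated wild-type thymus, with the same dose and time, served to estimate the spread and are given beside named genes. Genotype and irradiation differed together and no unirradiated array labelled TRAF6 null was among the samples, so the effects of genotype and of irradiation cannot be told apart. The labels name neither the kind of null allele nor a separate animal for each array, so the p-values measure the spread between these arrays, which for the irradiated wild-type pair may be technical.

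The genes described are the 11563 of 30854 rows of the mouse table with a detection p-value under 0.01 on at least 2 of the 5 arrays. A row stands for 1 gene name, and its value is the mean signal of its beads on an Illumina bead array. Just inside that limit lay 1390 rows detected on exactly 2 arrays, with a median signal of 134 before background correction, and just outside it lay 1526 rows detected on exactly 1 array, with a median of 125. Signals below are background-corrected and normalized intensities in arbitrary units, and differences are log2 differences with their standard error (SE) from a limma fit over all 5 arrays. A gene is said to have risen or fallen only where its adjusted p-value was under 0.05.

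TRAF6 is a ubiquitin ligase that carries signals from Toll-like receptors, the interleukin-1 receptor and some TNF receptors to the kinases upstream of NF-kB and AP-1. In mice it is needed for the medullary epithelium of the thymus, the cells that show tissue-specific antigens to developing T cells. Ionising radiation breaks DNA, and in thymocytes the breaks activate p53, a transcription factor whose targets halt the cell cycle or start apoptosis. Immature thymocytes are among the cells most prone to this death.

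The row named Traf6 was not lower on the labelled-null arrays. Its signal was 528 and 394 on the labelled-null arrays and 205 and 214 on the irradiated wild-type arrays, against 276 on the unirradiated array. Both labelled-null arrays thus lay above the other 3, but the difference from the unirradiated array did not pass (0.72 ± 0.24 SE, limma adjusted p = 0.0853). Without labelled-null array 2 it did (0.93, limma adjusted p = 0.0193). The table does not say which part of the transcript the row measures, so the row cannot show whether the allele was lost, and every direction below rests on the labels.

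Sex-linked transcripts separated the arrays across the groups. Xist, the RNA that coats the inactive X chromosome, was read at 22.5 and 1068 on the labelled-null arrays and at 22.3 and 23.1 on the irradiated wild-type arrays, against 1903 on the unirradiated array. Ddx3y, a Y-linked helicase, gave 1131 and 145 on the labelled-null arrays and 1097 and 1031 on the irradiated wild-type arrays, against 87.0 on the unirradiated array. Labelled-null array 2 and the unirradiated array therefore shared a high Xist and a low Ddx3y signal, and the other 3 arrays shared the opposite. Kdm5d, also Y-linked, followed the same split, with 94.7 and 21.9 on the labelled-null arrays against 21.4 on the unirradiated array. Without labelled-null array 1, 160 of the 163 named genes that passed still did so, but that fit sets 1 array against 1, takes its spread from the irradiated wild-type pair alone and passes more genes over the whole table.

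**Figure D1:**
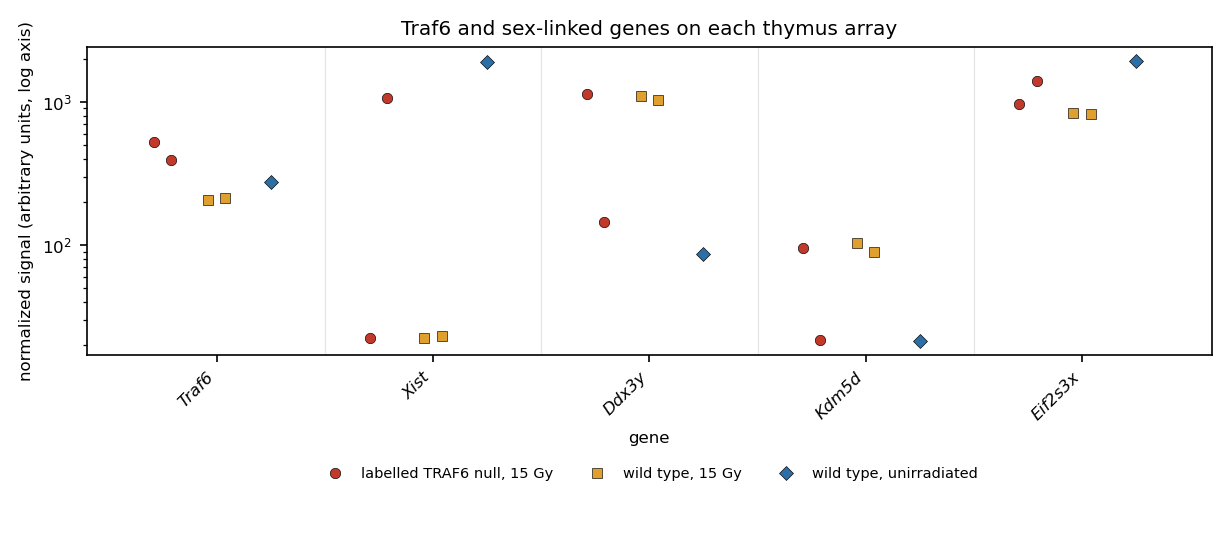
Normalized signal (arbitrary units, log axis) of Traf6 and 4 sex-linked genes, with 1 point per array for the labelled-null, irradiated wild-type and unirradiated wild-type arrays. Traf6 is highest on the labelled-null arrays (528 and 394), and Xist is high only on labelled-null array 2 (1068) and the unirradiated array (1903).

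Arrays were alike in bead number (median 41 to 43 per row) and in the standard error of the bead mean (median 3.23% to 3.48% of the signal). Rows detected numbered 9519 and 9493 on the labelled-null arrays and 11177 and 10911 on the irradiated wild-type arrays, against 10298 on the unirradiated array. Across genes, which are not independent replicates, log2 signals correlated at 0.971 between the labelled-null arrays and at 0.886 and 0.872 between these and the unirradiated array. T-cell receptor subunit genes were read on all 5 arrays: Cd3e was at 3118 and 2827 on the labelled-null arrays and at 3051 and 2867 on the irradiated wild-type arrays, against 3446 on the unirradiated array. Cd3g was at 4174 and 4533 on the labelled-null arrays and at 5220 and 4466 on the irradiated wild-type arrays, against 14795 on the unirradiated array. Of the defining coreceptors, Cd8a lay within background, between 20.9 and 22.8 on the 5 arrays. Cd4 was within background on the labelled-null arrays, at 47.2 and 37.5, against 67.8 on the unirradiated array, and did not pass.

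Of the 11563 genes, 3317 passed (28.7%), 1577 of them higher (13.6%) and 1740 lower (15.0%) on the labelled-null arrays. These shares are the background for every list count below. The change was at least 2-fold for 1268 higher and 1311 lower genes, and the median difference over all tested genes was -0.03. Because the unirradiated group is a single array, its spread was taken to equal that of the irradiated pairs. With the spread from the labelled-null pair alone, 456 genes were higher and 439 lower. A fit of those 3 arrays and a fit that lacks 1 irradiated wild-type array, whichever it is, give the same calls, so 1 p-value is given for both below. Without labelled-null array 1 the counts were 2414 and 2615. For 415 higher and 440 lower genes the dimmer group was within background, so only a lower bound of the fold is known. Such genes passed the detection filter mainly through the other arrays, so their direction was largely set by that filter. This applies to every gene given below as at least N-fold higher or lower.

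The greatest rise belonged to Depp1, a FOXO-responsive regulator of autophagy listed under an older name. Depp1 stood at 5144 and 5710 on the labelled-null arrays and at 110 and 116 on the irradiated wild-type arrays, against 68.4 on the unirradiated array (6.31 ± 0.19 SE, limma adjusted p = 0.00717). The labelled-null arrays thus stood far from all wild-type arrays, irradiated or not. Other leading rises were genes of macrophages and myeloid cells: Ccl6, a chemokine, gave 795 and 2558 on the labelled-null arrays against 45.9 on the unirradiated array and was at least 29.1-fold higher over the pair, Hmox1, the haem-degrading oxygenase, at least 24.01-fold higher, and Chil3, a chitinase-like protein of myeloid cells, differed by 4.54 ± 0.21 SE. With the background inferred by limma's neqc function, an alternative setting, Ccl6 did not pass (2.80, limma adjusted p = 0.2003). Ccl7 (4.50 ± 0.41 SE), a monocyte chemokine, Retnla (4.46 ± 0.49 SE), a marker of alternatively activated macrophages, and Cxcl13 (4.28 ± 0.37 SE), a B-cell chemokine, also rose. Ccn2, a matrix-associated growth regulator, differed by 5.08 ± 0.44 SE. Inmt, an indole N-methyltransferase, was at least 21.2-fold higher and Pmp22, a myelin and growth-arrest protein, at least 16.2-fold. Pdk4, a mitochondrial kinase, was at least 14.6-fold higher and Fam107a at least 9.49-fold. Like Ccl6, Ccl7 (limma adjusted p = 0.0580), Pmp22 (0.0726), Fam107a (0.0962), Inmt (0.166) and Pdk4 (0.229) did not pass with neqc's background inference. The genes given here as at least N-fold higher were within background on the unirradiated array.

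Wild-type irradiated arrays split these genes. As background, 43.6% of tested genes passed between the labelled-null and the irradiated wild-type arrays (20.8% higher, 22.8% lower), and 36.2% between the irradiated and the unirradiated wild-type arrays (18.7% higher, 17.5% lower). These comparisons share arrays. Ccn2 gave 2592 and 4561 on the labelled-null arrays and 3644 and 2382 on the irradiated wild-type arrays, against 101 on the unirradiated array, and the irradiated groups overlapped. Ccl7 was at 1357 and 2108 on the labelled-null arrays and at 2422 and 3875 on the irradiated wild-type arrays, against 74.5 on the unirradiated array. Inmt, in contrast, gave 687 and 1574 on the labelled-null arrays and only 87.5 and 94.9 on the irradiated wild-type arrays, against 47.0 on the unirradiated array. The difference of the labelled-null from the irradiated wild-type arrays was 3.51 for Inmt (limma adjusted p = 0.00519), 3.27 for Chil3 (limma adjusted p = 0.00228) and 0.22 for Ccn2, which did not pass.

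The leading falls held thymocyte, mitotic and medullary genes. Dntt, the enzyme that adds nucleotides at receptor gene joints, gave 60.9 and 124 on the labelled-null arrays, against 2853 on the unirradiated array (-5.04 ± 0.79 SE, limma adjusted p = 0.0152). Rag1, which cuts those genes, gave 258 and 79.1 against 3486 (-4.61 ± 0.92 SE). Srsf7, a splicing factor, had 2 rows that differed in size: the dimmer one was at 46.3 and 57.9 against 1926, at least 33.2-fold lower, and the brighter one at 1764 and 1328 against 5056 (-1.72). Both rows lay lower on both labelled-null arrays. Wdr78, a dynein-associated protein of cilia, was at least 15.2-fold lower, Kif11 at least 12.8-fold, H2-Q2, a class Ib histocompatibility gene, at least 8.44-fold and Crhbp, which binds corticotropin-releasing hormone, at least 7.83-fold. Slc16a5, a monocarboxylate transporter, gave 99.4 and 28.1 on the labelled-null arrays against 1174 on the unirradiated array. It fell by 4.47 on the log2 scale, or by 3.56 and 5.39 with labelled-null array 2 or 1 left out, and it no longer passed with an irradiated wild-type array left out (limma adjusted p = 0.0511). The remaining leading falls were Fezf2, a factor of the medullary epithelium, Sprr2d and Spink1, tissue antigens it shows, and Defb6, an epithelial defensin. With neqc's own background inference Sprr2d and Spink1 did not pass (limma adjusted p = 0.05735 and 0.0676). Rag1 did not pass there or with no detection filter. Genes given here as at least N-fold lower, with Sprr2d, Defb6 and Spink1, were within background on both labelled-null arrays. They passed the detection filter mainly through the wild-type arrays, so their direction was largely set by that filter.

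**Figure D2:**
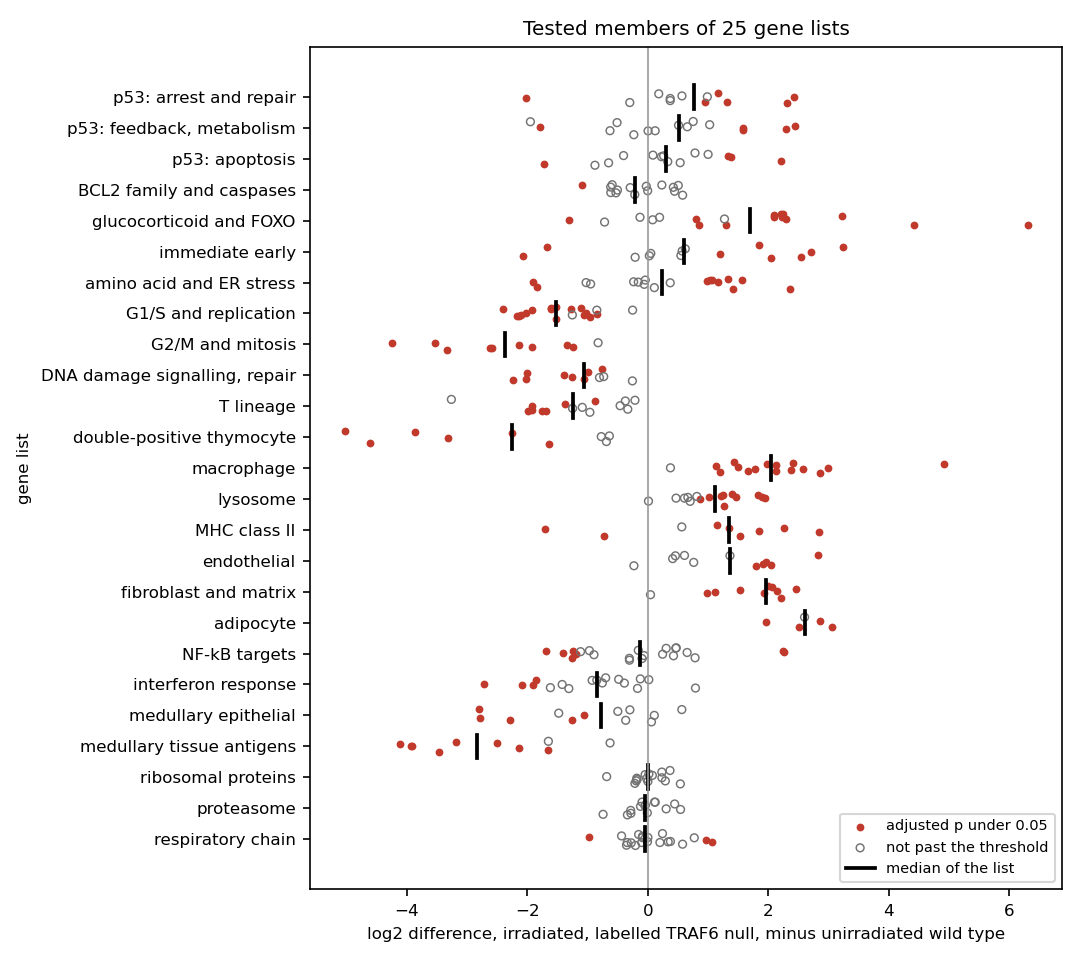
Log2 difference, labelled-null minus unirradiated wild type, of each tested member of the gene lists, with filled points for genes past the threshold and a bar at the list's median. Replication, mitosis and thymocyte lists lie to the left, macrophage, fibroblast and adipocyte lists to the right, and the ribosomal and proteasome lists around 0.

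Targets of p53 rose in part. Of 41 tested targets, 12 rose and 3 fell, with a median difference of 0.51. Of all tested genes, 13.6% rose and 15.0% fell. The median of the targets was 0.28 under the authors' matrix and 0.17 with neqc's own background inference. With detection required on all 5 arrays it was 0.96. Among arrest and repair targets 5 of 12 rose and 1 fell. Cdkn1a, the gene of the p21 inhibitor of cyclin-dependent kinases, gave 1019 and 1326 on the labelled-null arrays and 2907 and 2969 on the irradiated wild-type arrays, against 235 on the unirradiated array. The 3 groups did not overlap, and the labelled-null arrays lay between the other groups. Cdkn1a differed by 2.31 ± 0.23 SE from the unirradiated array (limma adjusted p = 0.00900) and by -1.34 from the irradiated wild-type arrays (limma adjusted p = 0.00741). Plk2, a stress-responsive kinase, rose less evenly, at 273 and 624 on the labelled-null arrays against 76.6 on the unirradiated array (2.43 ± 0.53 SE, limma adjusted p = 0.0310). Sesn1, an inhibitor of growth signalling that is also a FOXO target, was at 3464 and 3644 on the labelled-null arrays and 803 and 669 on the irradiated wild-type arrays, against 1425 on the unirradiated array. Its irradiated wild-type level lay below the unirradiated one and its labelled-null level above it. Ercc5, a repair endonuclease, rose by 1.16 ± 0.27 SE, and Pcna, the replication clamp, fell (-2.03 ± 0.25 SE). Sfn (14-3-3 sigma), Gadd45a and Ddb2 did not pass, at 0.99 ± 0.50, 0.57 ± 0.34 and 0.37 ± 0.21 SE.

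Feedback and metabolic targets gave 4 rises and 1 fall among 15, a share near that of all genes (28.7%). Mdm2, the ligase that degrades p53, was at 1107 and 1442 on the labelled-null arrays and at 2518 and 2638 on the irradiated wild-type arrays, against 750 on the unirradiated array. Its difference from the unirradiated array, 0.75 ± 0.23 SE, did not pass (limma adjusted p = 0.0712). Dcxr, a carbonyl reductase, was at 1100 and 1226 against 214 (2.44 ± 0.19 SE, limma adjusted p = 0.00751). Abhd4, a lipase, was at 552 and 710 against 128 (2.29 ± 0.23 SE), and Pltp, a phospholipid carrier, rose by 1.57 ± 0.23 SE. The transglutaminase gene Tgm2 gave 968 and 1220 on the labelled-null arrays, 6476 and 8126 on the irradiated wild-type arrays, against 363 on the unirradiated array. On the labelled-null arrays Tgm2 thus rose by 1.58 ± 0.26 SE over the unirradiated array but lay below the irradiated wild-type arrays (-2.74, limma adjusted p = 0.00290). Gdf15, a stress cytokine, was within background at 22.3 and 33.7 on the labelled-null arrays and at 25.2 on the unirradiated array, while the irradiated wild-type arrays gave 1476 and 839. Gls2, a mitochondrial glutaminase, showed the same pattern, with 21.5 and 22.9 on the labelled-null arrays and 99.6 and 109 on the irradiated wild-type arrays, against 26.1 on the unirradiated array. Ptprv, a receptor phosphatase, fell (-1.80 ± 0.35 SE).

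Targets that promote apoptosis gave 3 rises and 1 fall among 14, a share near that of all genes (28.7%). Bbc3, the BH3-only protein PUMA, was at 565 and 356 on the labelled-null arrays and at 519 and 548 on the irradiated wild-type arrays, against 97.4 on the unirradiated array (2.20 ± 0.32 SE, limma adjusted p = 0.0132). The irradiated groups overlapped for Bbc3. Bax, which opens the outer mitochondrial membrane, gave 295 and 254 on the labelled-null arrays and 411 and 675 on the irradiated wild-type arrays, against 108 on the unirradiated array (1.34 ± 0.34 SE, limma adjusted p = 0.0452). Bax passed under 4 of 12 alternatives, and its difference went down to 0.35 (limma adjusted p = 0.531) with neqc's own background inference. Phlda3, an inhibitor of AKT, rose by 1.38 ± 0.36 SE and Bid, a BH3-only protein cleaved by caspases, fell (-1.73 ± 0.18 SE). Apaf1, the scaffold of the apoptosome, was at 182 and 472 on the labelled-null arrays and at 1466 and 1412 on the irradiated wild-type arrays, against 540 on the unirradiated array, and did not pass. Fas, a death receptor, was at 534 and 1209 against 1263 and did not pass. Trp53 itself, which encodes p53, was at 43.2 and 72.2 on the labelled-null arrays, against 132 on the unirradiated array (-1.24 ± 0.34 SE, limma adjusted p = 0.0532).

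The labelled-null arrays differed from each other for p53 targets. The median of the 41 targets over the unirradiated array was 0.23 on labelled-null array 1 and 0.74 on labelled-null array 2. Without array 1, 20 targets rose and 4 fell; without array 2, 13 rose and 9 fell. Bax did not pass without labelled-null array 1 (limma adjusted p = 0.0621). With an irradiated wild-type array left out, Bax (limma adjusted p = 0.0626), Plk2 (0.0726), Sesn1 (0.0596), Ercc5 (0.105), Phlda3 (0.114), Tgm2 (0.0547), Pltp (0.0566) and Ptprv (0.0724) did not pass. Cdkn1a and Dcxr passed under each of the 12 alternatives, Cdkn1a with differences of 1.90 to 2.50. Phlda3 passed under 4 and Plk2 under 5 of the 12, and Ercc5 under 5 of the 11 that tested it. Bbc3 and Abhd4 passed under 11, but not with neqc's own background inference (limma adjusted p = 0.149 and 0.0551).

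**Figure D3:**
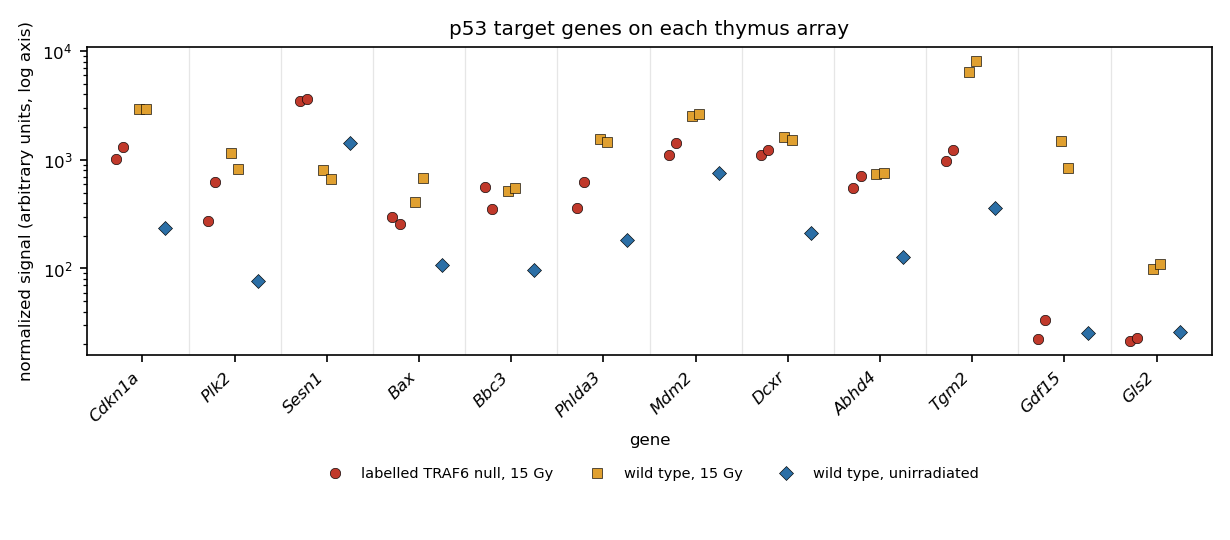
Normalized signal (arbitrary units, log axis) of p53 target genes on each array, labelled-null left, irradiated wild type in the middle and unirradiated wild type right. Cdkn1a lies at 1019 and 1326 on the labelled-null arrays, between the irradiated wild-type arrays and the unirradiated array at 235, and Gdf15 rises above 100 only on the irradiated wild-type arrays.

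The wider BCL2 and caspase list passed no more often than all genes (28.7%). Of 15 tested members none rose and 1 fell (median -0.22), Bcl2l1, which encodes the survival protein BCL-XL (-1.09 ± 0.23 SE). It no longer passed with an irradiated wild-type array left out (limma adjusted p = 0.0883). Bcl2l11 (BIM), a BH3-only protein with a role in thymocyte deletion, was at 291 and 267 against 187 and did not pass. Mcl1, a survival factor, was at 2930 and 2887 on the labelled-null arrays and at 5486 and 5800 on the irradiated wild-type arrays, against 4200 on the unirradiated array, and did not pass (-0.53 ± 0.18 SE).

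Genes of DNA replication and mitosis fell. Of 19 tested G1/S and replication genes, 16 fell and none rose (median -1.53). Of 10 tested mitotic genes, 9 fell and none rose (median -2.37). In bulk tissue, fewer cells of a type and less RNA per cell cannot be told apart, and this applies to every group below. The summed signal of 14 double-positive thymocyte genes was 8126 and 6936 on the labelled-null arrays, against 29465 on the unirradiated array, and its part in the falls was not tested. Tyms, which makes thymidylate, was at 241 and 320 on the labelled-null arrays, against 1470 on the unirradiated array (-2.40 ± 0.24 SE, limma adjusted p = 0.00897). The helicase gene Mcm2 was at 400 and 278 against 1506 (-2.18 ± 0.27 SE), its partner Mcm3 at 269 and 167 against 937 (-2.14 ± 0.32 SE), and the loading factor Mcm10 at 356 and 244 against 1268 (-2.10 ± 0.29 SE). Rfc3, a clamp loader subunit, did not pass, at 390 and 337 against 433.

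Among the mitotic genes, Kif11, the spindle motor, was within background on both labelled-null arrays (37.4 and 41.0), against 742 on the unirradiated array. Ccnb1, cyclin B1, gave 147 and 208 on the labelled-null arrays, against 2028 on the unirradiated array (-3.53 ± 0.27 SE, limma adjusted p = 0.00751). Plk1, the mitotic kinase, gave 203 and 161 against 1823 (-3.33 ± 0.26 SE), and Bub1b, of the spindle checkpoint, 294 and 156 against 1311 (-2.62 ± 0.40 SE). All of these lay below the unirradiated array on both labelled-null arrays. The falls were smaller than on the irradiated wild-type arrays for Tyms, which gave 100 and 93.9 there, with a difference of 1.52 between the irradiated groups (limma adjusted p = 0.00613). For Plk1 they were larger: the irradiated wild-type arrays gave 439 and 550, a difference of -1.44 (limma adjusted p = 0.00773). With an irradiated wild-type array left out, Mcm3 (limma adjusted p = 0.0521) and Bub1b (0.0501) did not pass.

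Promoters of these genes are shown because E2F and DREAM complexes are known to act at such sequences. Sequences are from RefSeq on GRCm38.p6, read along the gene from 250 bases before to 50 after the annotated start, with capitals at matches on either strand. The E2F letters searched were TTTCCCGC and TTTGGCGC, and the CHR letters, a cell cycle element, were TTTGAA. Mcm3 lies on the minus strand at chr1:20820263-20820562, Kif11 on the plus strand at chr19:37376132-37376431 and Plk1 on the plus strand at chr7:122159185-122159484. Capitals mark E2F matches in Mcm3 and CHR matches in Kif11 and Plk1. The promoters shown were picked from genes that fell because they hold a match. Tyms, Mcm2 and Mcm10 hold no E2F match and Ccnb1 no CHR match.
Mcm3: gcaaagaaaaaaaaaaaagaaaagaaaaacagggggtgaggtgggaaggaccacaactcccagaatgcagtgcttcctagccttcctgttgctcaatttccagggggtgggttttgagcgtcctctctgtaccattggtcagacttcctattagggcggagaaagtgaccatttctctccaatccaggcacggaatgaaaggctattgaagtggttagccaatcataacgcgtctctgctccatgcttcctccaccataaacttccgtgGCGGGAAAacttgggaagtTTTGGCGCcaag
Kif11: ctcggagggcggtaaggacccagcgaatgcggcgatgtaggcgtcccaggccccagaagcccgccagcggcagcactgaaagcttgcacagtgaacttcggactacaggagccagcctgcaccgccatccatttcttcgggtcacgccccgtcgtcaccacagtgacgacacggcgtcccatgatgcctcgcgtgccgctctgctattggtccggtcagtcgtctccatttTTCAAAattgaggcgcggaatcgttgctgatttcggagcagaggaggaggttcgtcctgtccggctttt
Plk1: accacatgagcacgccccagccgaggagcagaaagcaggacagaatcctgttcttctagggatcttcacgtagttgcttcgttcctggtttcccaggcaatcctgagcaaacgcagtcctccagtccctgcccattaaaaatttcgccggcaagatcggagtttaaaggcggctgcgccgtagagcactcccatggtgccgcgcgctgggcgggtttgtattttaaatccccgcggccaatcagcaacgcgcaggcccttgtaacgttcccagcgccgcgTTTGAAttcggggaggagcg

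An E2F match stood in 1.6% of all 32851 promoters, or in 1.8% of the 27025 genes they belong to, and in 6 of the 16 tested replication genes with a promoter in the table. The CHR letters stood in 17.9% of all promoters, or in 20.2% of the genes, and in 7 of the 9 tested mitotic genes with one. Among the genes that fell, the counts were 4 of 13 and 6 of 8. The Mcm3 promoter holds 2 E2F matches, on opposite strands and after the start. A match describes the letters alone.

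**Figure D4:**
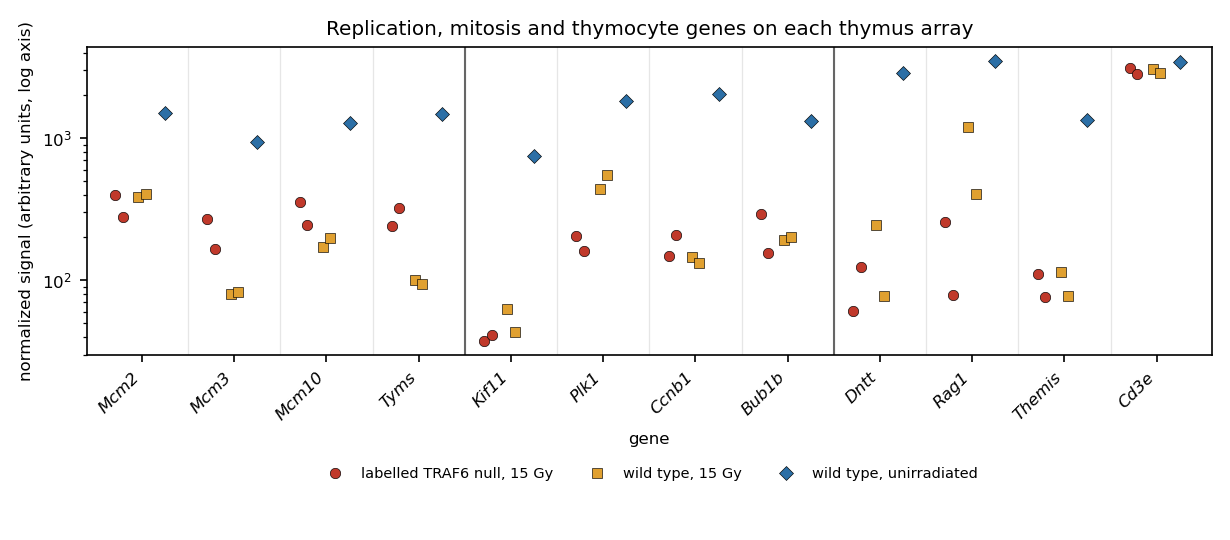
Normalized signal (arbitrary units, log axis) of replication genes (left), mitotic genes (middle) and thymocyte genes (right) on each array. The labelled-null arrays lie below the unirradiated array for every gene shown, from Cd3e at 3118 and 2827 against 3446 to Dntt at 60.9 and 124 against 2853.

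Genes that sense and repair broken DNA fell with the cycling genes. Of 11 tested, 8 fell and none rose (median -1.06). H2ax, the histone marked at breaks, was at 260 and 177 on the labelled-null arrays, against 1013 on the unirradiated array (-2.24 ± 0.30 SE, limma adjusted p = 0.0116). Xrcc6, the end-binding protein Ku70, was at 1644 and 1198 against 5720 (-2.03 ± 0.36 SE), Parp1, which marks breaks with poly(ADP-ribose), at 204 and 220 against 851 (-2.01 ± 0.19 SE), and Lig4, the end-joining ligase, at 59.7 and 61.3 against 159 (-1.39 ± 0.18 SE). Lig4 no longer passed with an irradiated wild-type array left out (limma adjusted p = 0.0553). Mre11a, a break-processing nuclease, did not pass, at 261 and 233 against 410.

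Thymocyte genes fell unevenly. Of 9 tested genes of double-positive thymocytes, the main population of the cortex, 6 fell and none rose (median -2.26). Beside Dntt and Rag1, Themis, needed for positive selection, gave 111 and 76.0 on the labelled-null arrays, against 1335 on the unirradiated array (-3.86 ± 0.36 SE, limma adjusted p = 0.00785). The irradiated wild-type arrays were also low for Themis, at 114 and 77.5, and its difference between the irradiated groups did not pass. Of 15 tested genes of the T lineage, 7 fell and none rose (median -1.25). Bcl11b, a T-lineage commitment factor, gave 683 and 378 on the labelled-null arrays and 1800 and 1652 on the irradiated wild-type arrays, against 2020 on the unirradiated array (-1.99 ± 0.38 SE). Its difference from the irradiated wild-type arrays was -1.76 (limma adjusted p = 0.01225). Cd27, a costimulatory receptor (-1.93 ± 0.33 SE), Tcf7, the factor TCF1 (-1.92 ± 0.21 SE), and Cd3g, a receptor subunit (-1.77 ± 0.20 SE), also fell, while Cd3e and Cd2 did not pass, at -0.21 ± 0.19 and -0.33 ± 0.22 SE.

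Without labelled-null array 1, 11 T-lineage genes fell, and without array 2, 8. Bcl11b (limma adjusted p = 0.0686) and Cd27 (0.0580) no longer passed with an irradiated wild-type array left out. The summed signal of the 17 T-lineage rows was 33268 and 23460 on the labelled-null arrays, against 60796 on the unirradiated array. Of 7 early double-negative thymocyte genes 1 fell, the Notch target Nrarp (-1.55 ± 0.23 SE, and limma adjusted p = 0.0543 with an irradiated wild-type array left out). Of 9 mature T-cell genes 1 rose and 1 fell, and neither this list nor the double-negative list passed more often than all genes (28.7%). The rise was in Klf2, a migration factor (0.84 ± 0.22 SE), which no longer passed with an irradiated wild-type array left out (limma adjusted p = 0.144). Among regulatory T-cell genes, Ctla4, an inhibitory receptor, rose to 1933 and 3254 on the labelled-null arrays, against 352 on the unirradiated array and 124 on each irradiated wild-type array (2.83 ± 0.34 SE, limma adjusted p = 0.0104). Foxp3, which defines these cells, went the other way, at 139 and 191 against 335 (-1.04 ± 0.26 SE, and limma adjusted p = 0.117 with an irradiated wild-type array left out), as did Ikzf2, its partner (-1.58 ± 0.19 SE).

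Genes that glucocorticoids or FOXO factors induce rose. Of 18 tested, 12 rose and 1 fell, with a median of 1.70, or 1.31 with dim genes at their bound. Under the authors' matrix the median was 1.09, and with neqc's own background inference 1.07. Beside Depp1, Pdk4, which turns cells from glucose to fat as fuel, gave 464 and 1098 on the labelled-null arrays and 159 and 144 on the irradiated wild-type arrays, against 33.4 on the unirradiated array. Klf9, a glucocorticoid-induced transcription factor, gave 3644 and 4242 on the labelled-null arrays and 1336 and 1093 on the irradiated wild-type arrays, against 423 on the unirradiated array (3.22 ± 0.23 SE, limma adjusted p = 0.00751). For both genes all labelled-null values exceeded all wild-type values, and a second Klf9 row differed by 3.18. Sgk1, a kinase of ion transport and survival, gave 5492 and 8416 on the labelled-null arrays and 6056 and 6068 on the irradiated wild-type arrays, against 1388 on the unirradiated array (2.29 ± 0.30 SE), so the irradiated groups overlapped.

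Other glucocorticoid markers were named after their values were seen. Tsc22d3, which encodes the glucocorticoid-induced leucine zipper, gave 5127 and 4197 on the labelled-null arrays and 1557 and 1106 on the irradiated wild-type arrays, against 985 on the unirradiated array (2.23 ± 0.29 SE, limma adjusted p = 0.0112). Txnip, an inhibitor of thioredoxin, gave 16020 and 16156 on the labelled-null arrays and 5144 and 4561 on the irradiated wild-type arrays, against 3756 on the unirradiated array (2.10 ± 0.19 SE). Both differed from the irradiated wild-type arrays, by 1.82 (limma adjusted p = 0.00606) and 1.73 (limma adjusted p = 0.00352). Fkbp5, a chaperone partner of the glucocorticoid receptor, did not pass, at 778 and 662 against 628. Bcl6, a repressor, fell (-1.31 ± 0.21 SE, and limma adjusted p = 0.0630 with an irradiated wild-type array left out).

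The Klf9 promoter holds the letters GTAAACA, a FOXO-type motif searched on both strands and present in 3.6% of all promoters, or 4.1% of genes, and in 2 of 17 tested members of this list. It lies on the plus strand at chr19:23140976-23141275 (RefSeq, GRCm38.p6), with the match in capitals, 100 bases before the start. This promoter was picked for holding a match, which those of Depp1, Pdk4 and Sgk1 lack.
Klf9: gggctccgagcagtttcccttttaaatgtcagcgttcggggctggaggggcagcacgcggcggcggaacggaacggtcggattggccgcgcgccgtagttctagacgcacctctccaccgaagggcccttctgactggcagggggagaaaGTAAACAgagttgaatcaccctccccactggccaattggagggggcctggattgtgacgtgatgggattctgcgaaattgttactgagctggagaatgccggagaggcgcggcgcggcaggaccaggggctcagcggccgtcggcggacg

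Immediate early genes split. Of 14 tested, 6 rose and 2 fell (median 0.59), where 13.6% of all genes rose and 15.0% fell. Ier3, a stress-induced survival gene, gave 1415 and 1495 on the labelled-null arrays and 4107 and 3378 on the irradiated wild-type arrays, against 154 on the unirradiated array (3.24 ± 0.21 SE, limma adjusted p = 0.00751). The AP-1 genes Fosl2 (2.71 ± 0.31 SE) and Fos (2.53 ± 0.28 SE) and the phosphatase gene Dusp1 (2.04 ± 0.26 SE) rose. Egr2 and Egr3, which T-cell receptor signals induce in thymocytes, fell. Egr2 gave 134 and 160 on the labelled-null arrays and 464 and 539 on the irradiated wild-type arrays, against 614 on the unirradiated array (-2.07 ± 0.22 SE), and Egr3 fell by 1.67 on the log2 scale. Egr3 no longer passed with an irradiated wild-type array left out (limma adjusted p = 0.0501), and Egr1 was at 2911 and 2265 against 2525 and did not pass.

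Amino acid and endoplasmic reticulum stress genes gave 8 rises and 2 falls among 18 (median 0.24), where 13.6% of all genes rose and 15.0% fell. Atf3, a stress-induced repressor, was at least 3.08-fold higher, and Asns, asparagine synthetase, was at 537 and 651 on the labelled-null arrays, against 200 on the unirradiated array (1.57 ± 0.22 SE). Trib3, an AKT-binding pseudokinase, and Slc3a2, an amino acid transporter chain, were at least 2.08-fold and at least 1.48-fold higher. The 2 falls, Mthfd2 (-1.84 ± 0.19 SE) and Shmt2 (at least 1.91-fold lower), are mitochondrial enzymes of one-carbon metabolism that proliferating cells use. Shmt2 was within background on both labelled-null arrays (29.5 and 29.4), so its direction was largely set by the detection filter. Asns (limma adjusted p = 0.0526), Trib3 (0.0775) and Slc3a2 (0.0634) no longer passed with an irradiated wild-type array left out.

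Macrophage genes rose almost throughout. Of 16 tested, 15 rose and none fell (median 2.05, or 1.98 with dim genes at their bound). Under the authors' matrix and without background correction the median was 1.38 and 1.36. Hmox1 gave 1200 and 1154 on the labelled-null arrays and 779 and 685 on the irradiated wild-type arrays, against 39.0 on the unirradiated array. Fcgr3, an Fc receptor, gave 1295 and 2562 against 229 (2.99 ± 0.44 SE, limma adjusted p = 0.0134). Mertk, a receptor for apoptotic cells, was at least 5.31-fold higher, and Marco, a scavenger receptor, at least 3.94-fold. The irradiated wild-type arrays were also high for Mertk (235 and 237, against 220 and 308 on the labelled-null arrays). Lyz2, lysozyme, did not pass, at 5670 and 6964 against 4848. Marco no longer passed with an irradiated wild-type array left out (limma adjusted p = 0.0629).

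The summed signal of the 18 macrophage genes was 30242 and 40153 on the labelled-null arrays, against 11966 on the unirradiated array, and its part in the rises of lysosome and MHC class II genes was not tested. Lysosome genes gave 10 rises and no fall among 16 (median 1.11). Grn, progranulin, was at 2308 and 2432 on the labelled-null arrays, against 616 on the unirradiated array (1.94 ± 0.18 SE, limma adjusted p = 0.00796). The cathepsins Ctsl (1.90 ± 0.31 SE) and Ctsa (1.82 ± 0.23 SE) and the hexosaminidase subunit Hexa (1.46 ± 0.19 SE, and limma adjusted p = 0.0545 with an irradiated wild-type array left out) rose. Of 9 genes of MHC class II presentation, 6 rose and 2 fell (median 1.35), where 13.6% of all genes rose and 15.0% fell. H2-Eb1, a class II chain, was at 6302 and 8318 on the labelled-null arrays and at 6105 and 6498 on the irradiated wild-type arrays, against 1007 on the unirradiated array (2.85 ± 0.24 SE). Its chaperones H2-DMa (2.26 ± 0.20 SE) and H2-DMb1 (1.84 ± 0.19 SE) and the invariant chain Cd74 (1.53 ± 0.18 SE) also rose. Ciita, the factor that switches these genes on, fell, with 104 and 106 on the labelled-null arrays and 635 and 676 on the irradiated wild-type arrays, against 344 on the unirradiated array (-1.72 ± 0.18 SE, limma adjusted p = 0.00933). The other fall was H2-Ob, a modulator of peptide loading (at least 1.45-fold lower, and limma adjusted p = 0.151 with an irradiated wild-type array left out).

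Medullary epithelial genes fell where they changed. Of 12 tested, 5 fell and none rose (median -0.78). Of the 14 genes listed, 7 and 6 were above background on the labelled-null arrays and 11 on the unirradiated array. Genes within background on both labelled-null arrays passed the detection filter mainly through the wild-type arrays. The direction of such genes, Aire among them, was largely set by that filter. Aire, which switches on tissue antigens in these cells, was within background at 22.4 and 29.4 on the labelled-null arrays and at 329 and 412 on the irradiated wild-type arrays, against 126 on the unirradiated array. It was at least 2.17-fold lower than on the unirradiated array (limma adjusted p = 0.01001), and with neqc's own background inference it did not pass (-0.20, limma adjusted p = 0.289). Fezf2, the other known driver of tissue antigens, had 2 rows: the dim one was at least 2.55-fold lower, and the bright one gave 64.3 and 57.0 on the labelled-null arrays and 2516 and 2844 on the irradiated wild-type arrays, against 1065 on the unirradiated array (-4.14 ± 0.20 SE). The groups did not overlap for either gene, and the labelled-null arrays were lowest. Ly6d, a surface protein, gave 357 and 502 against 2944 (-2.80 ± 0.27 SE). Ivl, involucrin, fell too, with no lower bound above 1-fold, and no longer passed with an irradiated wild-type array left out (limma adjusted p = 0.0676). Krt14, a basal keratin, was at 2355 and 6056 against 4877, and Ccl21a, a medullary chemokine, at 3254 and 6137 against 3025, and neither passed.

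Antigens that the medulla shows from other tissues were nearly at background on the labelled-null arrays. Above background were 0 and 1 of the 14 genes on the labelled-null arrays and 11 on each irradiated wild-type array, against 10 on the unirradiated array. The 10 tested members passed the detection filter mainly through the wild-type arrays, so their direction was largely set by that filter, and counts and medians over them are a description. Of these 10, 8 fell and none rose (median -2.84, or -1.87 with dim genes at their bound). The median was -1.30 under the authors' matrix and -0.34 with neqc's own background inference. Csn2, a milk casein, gave 21.7 and 32.5 on the labelled-null arrays and 950 and 1083 on the irradiated wild-type arrays, against 402 on the unirradiated array, and was at least 6.93-fold lower than there (limma adjusted p = 0.00751). Spink1, a pancreatic trypsin inhibitor, gave 23.0 and 26.9 on the labelled-null arrays and 867 and 1006 on the irradiated wild-type arrays, against 379 on the unirradiated array. The skin proteins Sprr2d and Lor were at least 6.81-fold and at least 4.24-fold lower. Defb6, an epithelial defensin outside this list, was at least 6.63-fold lower, with the same limit from the detection filter. In each of these genes the unirradiated array lay between the labelled-null and the irradiated wild-type arrays. For Defb6 the irradiated wild-type arrays gave 462 and 519 against 385 on the unirradiated array, and that difference (0.35) did not pass.

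Cortical epithelial genes moved in both directions. Of 8 tested, 3 rose and 1 fell (median 0.67), where 28.7% of all genes passed. Ctsl, counted above among the lysosome genes, was 1 of the rises. The keratins Krt18 (9892 and 7454 against 3212) and Krt8 (9456 and 8910 against 5246) rose, by 1.42 ± 0.27 and 0.81 ± 0.18 SE, and no longer passed with an irradiated wild-type array left out (limma adjusted p = 0.0686 and 0.128). Psmb11, the thymus-specific proteasome subunit, was at least 2.61-fold lower. Ccl25, a cortical chemokine, was at 15351 and 11905 against 11063 and did not pass. Of 6 tested dendritic cell genes, Fscn1, an actin bundler of mature dendritic cells, gave 61.0 and 68.2 on the labelled-null arrays and 1484 and 1634 on the irradiated wild-type arrays, against 237 on the unirradiated array (-1.88 ± 0.20 SE, limma adjusted p = 0.00923). Cd83, a maturation marker, fell as well (-1.28 ± 0.20 SE), Zbtb46, a lineage factor, was at least 1.45-fold higher, and neither passed with an irradiated wild-type array left out (limma adjusted p = 0.0661 and 0.0832).

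**Figure D5:**
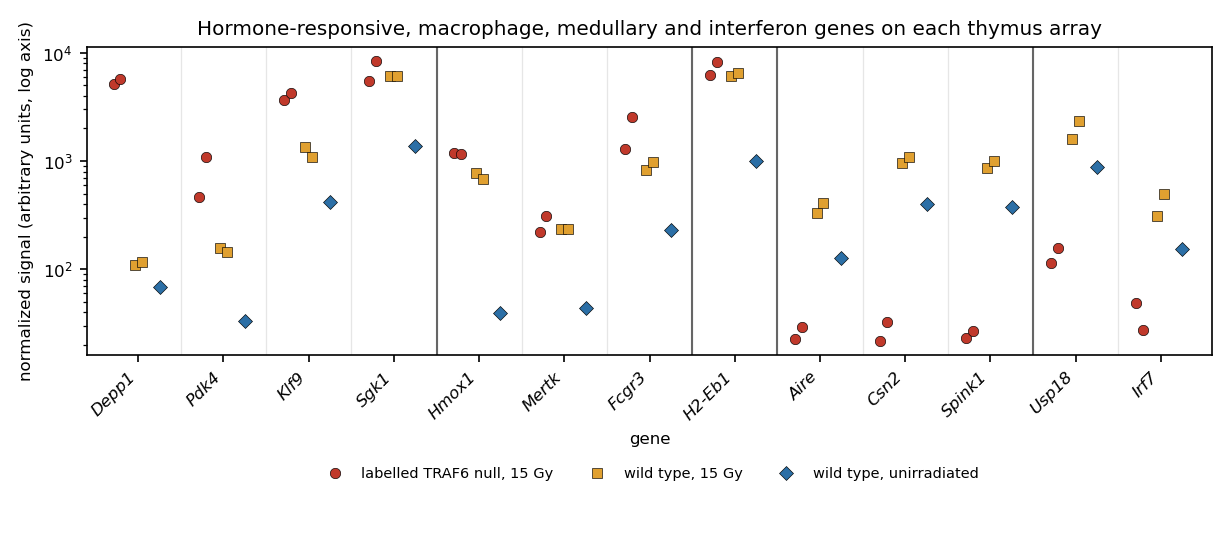
Normalized signal (arbitrary units, log axis) on each array of glucocorticoid and FOXO genes, macrophage genes, H2-Eb1, medullary genes and interferon genes, from left to right. Depp1 is high only on the labelled-null arrays (5144 and 5710), while Aire, Csn2 and Spink1 are lowest there, with the unirradiated array between the irradiated groups.

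NF-kB targets and regulators passed at a share near that of all genes (28.7%). Of 22 tested, 2 rose and 5 fell (median -0.13). Nfkbib, an inhibitor of NF-kB, gave 336 and 305 on the labelled-null arrays and 71.9 and 92.1 on the irradiated wild-type arrays, against 67.7 on the unirradiated array (2.24 ± 0.23 SE, limma adjusted p = 0.00914). Ccl2, a monocyte chemokine, was at least 2.51-fold higher. Ltb, lymphotoxin beta, gave 302 and 173 on the labelled-null arrays, against 740 on the unirradiated array (-1.69 ± 0.36 SE). Nfkbie, another inhibitor, was at least 2.29-fold lower, Cd40, a TNF receptor family member, fell by 1.26 on the log2 scale, and Nfkb2, the subunit of the alternative pathway, was at least 1.48-fold lower. Cxcl1, a neutrophil chemokine, was at 85.9 and 142 on the labelled-null arrays and at 1350 and 1499 on the irradiated wild-type arrays, against 206 on the unirradiated array, and did not pass against that array. With an irradiated wild-type array left out, Ccl2 (limma adjusted p = 0.0564), Ltb (0.0815), Nfkbie (0.0541), Cd40 (0.0726) and Nfkb2 (0.0760) did not pass.

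Partners of TRAF6 passed no more often than all genes (28.7%), with 2 rises and 2 falls among 19 (median 0.08). Sqstm1, the adaptor p62, gave 3114 and 3522 on the labelled-null arrays and 3664 and 3264 on the irradiated wild-type arrays, against 1237 on the unirradiated array (1.42 ± 0.20 SE), and Myd88, the Toll-like receptor adaptor, rose by 1.02 ± 0.26 SE. Ube2n, the ubiquitin-conjugating enzyme that works with TRAF6, was at least 2.78-fold lower, and Traf2, a related adaptor, at least 1.38-fold lower. Myd88 did not pass without labelled-null array 2 (limma adjusted p = 0.05003). With an irradiated wild-type array left out, Sqstm1 (limma adjusted p = 0.0564), Myd88 (0.0858), Ube2n (0.0536) and Traf2 (0.106) did not pass.

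Interferon-responsive genes passed no more often than all genes (28.7%). Of 17 tested, 4 fell and none rose (median -0.85, and -0.15 with neqc's own background inference). Usp18, which removes the ubiquitin-like ISG15, gave 113 and 159 on the labelled-null arrays and 1615 and 2333 on the irradiated wild-type arrays, against 882 on the unirradiated array (-2.72 ± 0.33 SE, limma adjusted p = 0.0105). Irf7, a driver of interferon production, was at least 2.67-fold lower, and the antiviral genes Oasl1 and Oas2 at least 1.76-fold and at least 1.62-fold. Irf7, Oasl1 and Oas2 were within background on both labelled-null arrays, with the same limit from the detection filter. On the irradiated wild-type arrays Irf7 stood at 308 and 494, against 155 on the unirradiated array, and on the labelled-null arrays at 48.2 and 27.3. Without labelled-null array 1, 1 gene rose and 6 fell; without array 2, none rose and 7 fell. Irf7 no longer passed with an irradiated wild-type array left out (limma adjusted p = 0.0609). With neqc's own background inference none of the 4 passed: the limma adjusted p was 0.0609 for Usp18 (-1.77), 0.544 for Irf7 (-0.23), 0.571 for Oasl1 (-0.14) and 0.816 for Oas2 (-0.14). Irf7, Oasl1 and Oas2 also did not pass without background correction or without a detection filter, nor did Oasl1 and Oas2 in the authors' matrix (limma adjusted p = 0.122 and 0.169).

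Genes of stroma and of tissue around the thymus rose. Of 10 tested fibroblast and matrix genes, 9 rose and none fell (median 1.96). Dcn, decorin, gave 5628 and 6173 on the labelled-null arrays and 2133 and 2211 on the irradiated wild-type arrays, against 1278 on the unirradiated array (2.21 ± 0.19 SE, limma adjusted p = 0.00751). Col6a1, a collagen chain (2.45 ± 0.38 SE), Pdgfra, a growth factor receptor (2.15 ± 0.19 SE), and Dpt, dermatopontin (2.06 ± 0.29 SE), rose. Of 11 endothelial genes 5 rose and none fell (median 1.36), where 13.6% of all genes rose and 15.0% fell. Emcn, endomucin, gave 982 and 1486 against 170 (2.83 ± 0.33 SE), Vwf, von Willebrand factor, rose by 2.04 ± 0.21 SE and Plvap, of endothelial diaphragms, by 1.97 ± 0.22 SE, and Selp, P-selectin, was at least 2.55-fold higher. Pecam1 did not pass, at 394 and 505 against 293.

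Of 5 tested adipocyte genes 4 rose (median 2.60). Cidea, a lipid droplet protein of brown fat, gave 681 and 1160 on the labelled-null arrays and 102 and 155 on the irradiated wild-type arrays, against 107 on the unirradiated array (3.06 ± 0.42 SE, limma adjusted p = 0.0126). Adipoq, adiponectin, gave 1790 and 2409 against 363, Cfd, adipsin, rose by 1.96 ± 0.20 SE, and Cidec was at least 4.56-fold higher. Ucp1, the brown fat uncoupler, was at 664 and 1959 against 188 and did not pass. Pth, parathyroid hormone, rose to 465 and 898 on the labelled-null arrays, against 63.0 on the unirradiated array and 84.7 and 60.5 on the irradiated wild-type arrays (3.36 ± 0.45 SE, limma adjusted p = 0.0121). Tg, thyroglobulin, gave 161 and 186 against 51.8 (1.74 ± 0.20 SE), and Calca, calcitonin, fell by 1.96 on the log2 scale and no longer passed with an irradiated wild-type array left out (limma adjusted p = 0.0596). Summed over 12 adipocyte rows the signal was 9704 and 13488 on the labelled-null arrays, against 2716 on the unirradiated array. Whether fat or parathyroid tissue in the sample had a part in other rises was not tested.

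Blood cell genes moved in part, where 13.6% of all genes rose and 15.0% fell. Of 11 tested neutrophil genes 5 rose and none fell (median 1.499), among them Prtn3, a granule protease, at 174 and 318 on the labelled-null arrays and 24.5 and 25.4 on the irradiated wild-type arrays, against 52.6 on the unirradiated array. The granule genes Mpo (1.499 ± 0.20 SE) and Ngp (1.803 ± 0.48 SE) also rose. Lcn2, a secreted iron-siderophore trap, was at 946 and 4992 on the labelled-null arrays against 212, and Retnlg at 249 and 1882 against 117, and neither passed. Without labelled-null array 1, 10 neutrophil genes rose. Ngp did not pass without labelled-null array 2 (limma adjusted p = 0.0675), and Prtn3 (0.0612), Mpo (0.0501) and Ngp (0.0683) did not with an irradiated wild-type array left out. Of 9 erythroid genes Car1, a carbonic anhydrase (2.28 ± 0.19 SE), and Slc4a1, the band 3 anion exchanger (1.796 ± 0.45 SE), rose. Hba-a1, a globin, stayed at 22987 and 25585 against 20926. Erythroid genes passed no more often than all genes (28.7%). Slc4a1 did not pass without labelled-null array 2 (limma adjusted p = 0.0613) or with an irradiated wild-type array left out (0.0564).

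Several housekeeping groups stayed near the unirradiated level. None of 15 ribosomal protein genes (median 0.00) and none of 14 proteasome genes (median -0.05) passed. At an unadjusted p under 0.05, 5062 of all tested genes passed. Of 20 respiratory chain genes 2 rose and 1 fell (median -0.05). These and the histone genes below passed no more often than all genes (28.7%). Of 9 sterol synthesis genes 5 fell and none rose (median -0.81), led by Msmo1, a sterol oxidase, at 204 and 211 against 828 (-1.99 ± 0.18 SE, limma adjusted p = 0.00775). Fdps (-1.57 ± 0.23 SE) and Cyp51 (-1.49 ± 0.24 SE), enzymes of the same pathway, fell and no longer passed with an irradiated wild-type array left out (limma adjusted p = 0.0523 and 0.0596). Of 13 chaperone genes 4 fell (median -0.51), a share near that of all genes (28.7%). Hsph1, an HSP70 exchange factor, gave 287 and 357 on the labelled-null arrays and 1251 and 1456 on the irradiated wild-type arrays, against 1414 on the unirradiated array (-2.14 ± 0.23 SE). Of 15 histone genes 2 rose and none fell (median 0.17), H2ac18 (2.68 ± 0.21 SE) and the linker histone H1f2 (2.07 ± 0.32 SE, and limma adjusted p = 0.0519 with an irradiated wild-type array left out).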

How the data were processed

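Signal on 5 Illumina bead arrays of mouse thymus RNA was used. Groups came from the sample titles. Per the file headers, the deposited table holds, by row and array, an average signal (a linear intensity), the beads' standard error, the count of beads and a detection p-value. Trizol was used for extraction and biotin for labelling, per the labels. Image processing is not given in the sources used here. The table has 1 row per gene name, and its detection p-values fall between the steps a single probe allows, so probes of a gene had been averaged before deposit. This makes the detection filter strict: 1385 rows left out had a signal above background on at least 2 arrays. The authors' series matrix holds the same deposited intensities times 1 constant per array.

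For each array, the location and SD of its background were read off the signals of rows whose detection p lay from 0.02 to 0.98. Signals were corrected by normexp, an offset of 16 was added, and arrays were quantile normalized and taken to log2 values (R 4.3.3, limma 3.58.1). The offset pulls folds of dim genes towards 1. limma (lmFit, eBayes) was fitted with a mean per group on all 5 arrays, with 2 residual and 2.89 prior degrees of freedom, two-sided, with Benjamini-Hochberg adjustment over 11563 rows at 0.05. The unirradiated group has 1 array and lends no spread. Above background means a raw signal over the 99th background percentile, and a gene within background on every array of a group is given as "at least N-fold" against the lowest value above background. Names were updated through the RefSeq gene table of GRCm38.p6, where 16223 rows matched a symbol, 5684 a synonym, 8919 neither and 28 were dates or numbers. The steps were tested on simulated data.

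Named genes were Traf6, the 12 greatest rises and 12 greatest falls with a recognised symbol, up to 4 genes that passed in each direction of each list, genes given as not having passed, and Cdkn1a, Mdm2, Bax, Bbc3 and Trp53. Cd3e, Cd4, Cd8a and the sex-linked genes check the samples. The members and lists were chosen with earlier results of these data known. Lists are described by counts and medians, without a test. Alternatives were other background corrections, median scaling, the authors' matrix, no or a stricter detection filter, leaving out each array of a pair, the 3 arrays alone and a replicate block. The sources used here name no slide or scan batch. Arrays of H1299 cells were not used. Some genes that the rule names are not reported here.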

Additional observations from a re-analysis of the deposited data

How the results depend on the processing

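No named gene that passed turned its direction under any alternative. Of 163 named genes that passed, 157 did so under median scaling, 144 without background correction, 138 in the authors' matrix, 135 with no detection filter, 94 with the 3 arrays of the comparison alone and 86 where neqc inferred the background. With detection required on all 5 arrays, 105 of 105 still tested passed. The cause of these losses was not tested, except that the fit of 3 arrays has fewer samples to estimate the spread.

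The count of higher genes, 1577, was 1031 in the authors' matrix, 672 with neqc's inference and 456 with the 3 arrays alone, and 456 to 2414 when arrays were left out singly. The count of lower genes, 1740, was 1151 with detection on all 5 arrays, 1159 with neqc's inference and 439 with the 3 arrays alone, and 439 to 2615 when arrays were left out singly. The median of replication genes ranged from -1.55 to -1.27, of mitotic genes from -2.37 to -2.26 and of T-lineage with double-positive genes from -1.67 to -1.09 when arrays were left out singly. Traf6 ranged from 0.51 to 0.93 when arrays were left out singly.

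The medians of the 10 lists named here kept their direction wherever they could be computed, which for tissue antigen genes left out detection on all 5 arrays. In the authors' matrix they were 1.44 for fibroblast, -2.26 for mitotic, 1.09 for glucocorticoid and FOXO, 0.98 for lysosome, 1.38 for macrophage and -1.30 for tissue antigen genes. With neqc's inference they were 1.28 for fibroblast, -1.29 for replication, -1.95 for mitotic, 1.07 for glucocorticoid and FOXO, -0.15 for interferon, 0.98 for lysosome, 1.59 for macrophage and -0.34 for tissue antigen genes. Without background correction they were 1.43 for fibroblast, -1.31 for replication, -1.99 for mitotic, 1.15 for glucocorticoid and FOXO, 1.36 for macrophage, -1.04 for T-lineage with double-positive (main value -1.51) and -1.25 for tissue antigen genes. With no detection filter they were -1.84 for mitotic, 1.28 for glucocorticoid and FOXO, 1.01 for lysosome and -2.27 for tissue antigen genes. With detection on all 5 arrays they were -2.26 for mitotic, 1.30 for glucocorticoid and FOXO, 1.01 for lysosome and 0.96 for p53 target genes. The p53 target median, 0.51 in the main fit, was lower under other settings. It was 0.28 in the authors' matrix, 0.17 with neqc's inference, 0.26 without background correction and 0.29 with no detection filter. Median scaling gave -2.63 for mitotic genes.

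With the irradiated arrays blocked by replicate number, 159 of 163 named genes passed. The arrays share only a number: deviations of same-numbered arrays correlated at 0.0324 across genes.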
